A study of Homo sapiens with 12 samples.

Results

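The comparison set untreated parental A549 cells (WT) against untreated A549 cells in which RNase L was knocked out (RLKO), to describe how the 2 lines differed before any stimulus. A549 is an established human lung carcinoma cell line with epithelial character. Members were all gene rows of the authors' table that were not marked HIDATA (the mark Cuffdiff gives where a locus had too much data to estimate) and had at least 1 FPKM (fragments scaled to transcript length and library size) in either untreated group. This gave 18132 of 58671 gene rows, of which 11430 were protein-coding. All groups were grown in DMEM with 10% FBS. The WT and RLKO groups were left untreated, and the same lines were also analysed 6 h after transfection of 500 ng/ml poly(I:C), a manufactured mimic of viral double-stranded RNA. Each of the 4 groups held 3 samples, called independent in the series' design, 12 in all. Total RNA was depleted of rRNA after ERCC spike-in RNAs (synthetic transcripts of known amount) had been added. Whether untreated cells received transfection reagent, whether the RLKO line is a single clone, and how long it had been cultured apart from WT are not given in the sources used here, so loss of RNase L and any difference between the lines of another origin cannot be told apart.

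The authors deposited 1 FPKM value per group, which leaves the spread among the 3 samples and the number of reads unknown, and no difference between the lines carried a test. Differences are given as log2 of (RLKO FPKM + 1) over (WT FPKM + 1), so that a positive value means higher in RLKO. The added 1 FPKM understates the difference of low genes. A difference of 1 on this scale, 2-fold, served as the limit for a count. That the WT and RLKO columns were scaled jointly by the authors is not stated, and every level set across the lines rests on FPKM as deposited.

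RNase L is a latent endoribonuclease. Oligoadenylate synthetases (OAS proteins) make 2-5A when they meet double-stranded RNA, 2-5A joins RNase L molecules into an active form, and the active enzyme cleaves single-stranded RNA of virus and host. In unstimulated cells little 2-5A is made and the enzyme is held to be mostly inactive.

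The genes that make or degrade 2-5A were less than 2-fold apart between the untreated lines. OAS1, a 2-5A synthetase, had 71.6 FPKM in WT and 49.5 FPKM in RLKO, and OAS3, which makes long 2-5A, had 17.7 and 16.6 FPKM. OAS2 and the related OASL were under 1 FPKM in both untreated lines. ABCE1, known as an RNase L inhibitor and ribosome recycling factor, had 140 and 136.4 FPKM, and PDE12, which degrades 2-5A, had 6.65 and 6.88 FPKM.

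Both lines carried some marks of A549. CDKN2A and CDKN2B, cell cycle inhibitors whose locus is deleted in A549, were listed at 0 in all 4 groups. MTAP, a neighbouring salvage enzyme gene, had 48.5 FPKM in WT and 53.1 FPKM in RLKO. MTAP was also on the list of A549 identity genes held to be lost or mutated, and its values are not those of a lost gene. The epithelial keratin KRT18 had 527 FPKM in WT and 750 FPKM in RLKO, and KRT8 had 627 and 825 FPKM. KRT7, another epithelial keratin, went the other way with 1748 and 1400 FPKM. The epithelial adhesion genes CDH1 and EPCAM were low in both lines, at 4.52 and 3.70 FPKM for CDH1 and 1.03 and 0.653 FPKM for EPCAM. PTPRC, the pan-leukocyte marker, CD3E of T cells and VWF of endothelium were at or under 0.0421 FPKM in both untreated lines.

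Most protein-coding transcripts differed little between the untreated lines. The median difference was 0.01 with an interquartile range over genes of -0.19 to 0.21, and levels on the log2(FPKM + 1) scale correlated across the 11430 genes with r = 0.986 (genes are not independent replicates). At least 2-fold higher in RLKO were 66 genes (0.577% of protein-coding members), and 78 (0.682%) were at least 2-fold lower. Only 4 were at least 4-fold higher and 9 at least 4-fold lower. Among 7248 genes with 10 FPKM or more in the higher line, the central 95% lay between -0.58 and 0.62 and 54 (0.745%) were beyond 2-fold, against 90 (2.15%) of 4182 genes below that level. Near the member limit, 2 of 132 coding genes at 1 to 1.1 FPKM were beyond 2-fold and 0 of 127 at 0.9 to 1 FPKM. Scaling both groups by the ERCC rows gave 25 genes higher and 230 lower and moved the median over protein-coding members to -0.34. The ERCC rows split between the lines, and 1 subgroup, taken after the split was seen, gave 448 higher, 34 lower and a median of 0.44. The other ERCC rows gave 21 higher, 342 lower and a median of -0.41. The balance of directions thus depended on the scale and on the ERCC rows used. List medians and counts above or below 0 are given on FPKM as deposited, to be read against the median of 0.01 over protein-coding members. Of 33 lists with at least 5 members, 18 had a median at least 0.1 from that median, and 0 of the 18 turned sign relative to it on the ERCC scale. Of the 15 nearer lists 2 did, HOX genes and p53 targets. The ERCC scale applies a single factor to each whole group, so apart from the added 1 FPKM the lists and that median move together. These counts are therefore no check on the direction of a list.

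**Figure D1:**
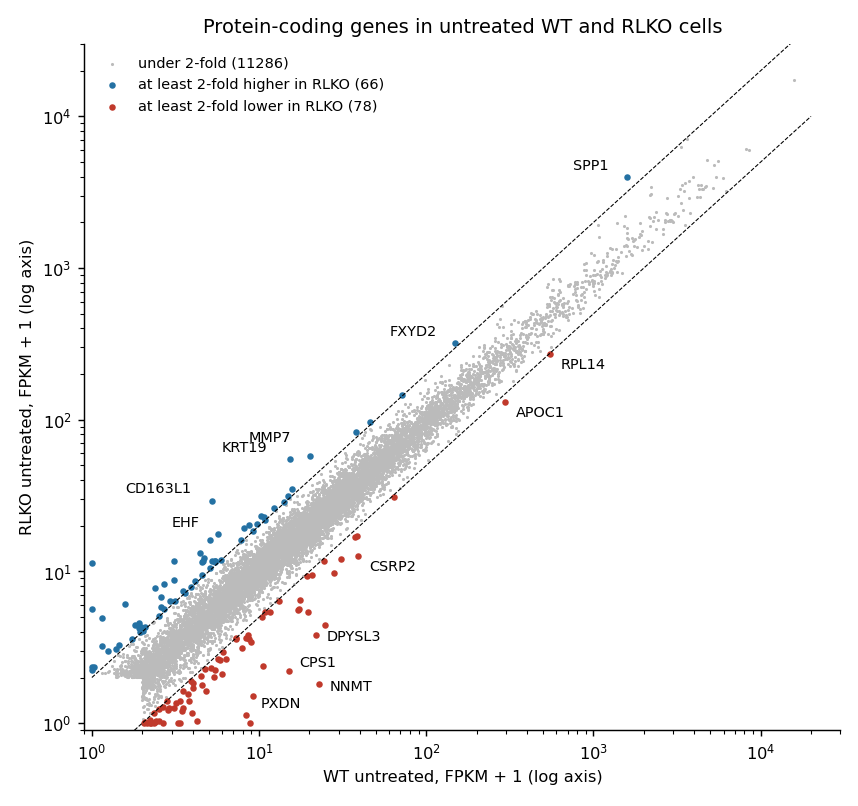
FPKM + 1 of protein-coding genes in untreated WT (horizontal, log axis) and untreated RLKO (vertical, log axis), each point 1 gene with the authors' group values, dashed lines at 2-fold. The 66 blue points lie above and the 78 red points below the band that holds the other genes; NNMT had 21.8 FPKM in WT and 0.822 FPKM in RLKO.

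The genes with the largest differences toward a lower value in RLKO were of mixed function. NNMT, nicotinamide N-methyltransferase (chromosome 11, 114257787 to 114313285), had 21.8 FPKM in WT and 0.822 FPKM in RLKO, a difference of -3.65. After poly(I:C) it had 10.3 and 1.57 FPKM. PXDN, the matrix peroxidase peroxidasin (chromosome 2, 1631887 to 1744852), had 7.39 FPKM in WT and 0.125 FPKM in RLKO, 59.1 times apart. After poly(I:C) its values were 6.06 and 0.155 FPKM, so both WT groups stood far above both RLKO groups.

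CPS1, carbamoyl phosphate synthetase of the urea cycle (chromosome 2, 210477682 to 210679107), had 14.1 FPKM in WT and 1.21 FPKM in RLKO untreated and 10.3 and 1.44 FPKM treated. DPYSL3, a cytoskeletal protein of the collapsin response family (chromosome 5, 147390811 to 147510056), had 20.9 and 2.80 FPKM untreated and 15.8 and 2.78 FPKM treated. For both genes the WT value was at least 4-fold the RLKO value in each state on the scale used here. ANXA10, an annexin, had 23.9 FPKM in WT and 3.44 FPKM in RLKO. MT1A, a metallothionein, had 8.17 and 0.511 FPKM.

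ZNF22, a zinc finger protein, had 9.60 FPKM in WT and 1.38 FPKM in RLKO, and ADD3, the membrane skeleton protein gamma adducin, had 18.7 and 4.41 FPKM. Both were also more than 2-fold lower in treated RLKO, by -1.57 and -1.45. For 2 of the next 3 in size the lines were closer in the treated state. CSRP2, a LIM domain protein, had 38.1 FPKM in WT and 11.6 FPKM in RLKO untreated but 16.5 and 14.8 FPKM treated. TMEM98, a transmembrane protein, went likewise, with 16.4 and 4.69 FPKM untreated and 3.79 and 3.53 FPKM treated. LYPD1, the third, had 16.2 and 4.601 FPKM untreated and 13.4 and 6.401 FPKM treated, a difference of -0.96.

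The genes with the largest differences toward a higher value in RLKO were likewise of mixed function. CD163L1, a scavenger receptor of the CD163 family (chromosome 12, 7346685 to 7479897), had 4.24 FPKM in WT and 28.3 FPKM in RLKO, a difference of 2.48. After poly(I:C) it had 2.52 and 13.7 FPKM. KRT19, the keratin of simple epithelia (chromosome 17, 41523617 to 41528308), had 14.4 FPKM in WT and 54.04 FPKM in RLKO, and 6.64 and 46.3 FPKM after poly(I:C). Both genes were higher in both RLKO groups than in both WT groups.

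MMP7, matrilysin, had 19.04 FPKM in WT and 56.4 FPKM in RLKO, and CEACAM6, a cell adhesion molecule, had 2.12 and 7.76 FPKM. EHF, an epithelial transcription factor of the ETS family, had 4.70 and 16.7 FPKM. PNPLA4, a lipase of the patatin family, had 4.09 and 15.1 FPKM, and DCLK1, a microtubule-associated kinase, had 1.37 and 6.83 FPKM. These 5 genes were also at least 2-fold higher in treated RLKO, MMP7 with 6.23 FPKM in WT and 52.4 FPKM in RLKO.

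AKR1C4, a hydroxysteroid dehydrogenase, had 2.12 FPKM in WT and 10.7 FPKM in RLKO untreated but 1.87 and 3.18 FPKM treated. HOOK1, a microtubule-binding adaptor, had 3.43 and 12.2 FPKM untreated and 2.475 and 3.86 FPKM treated. FSIP1, a fibrous sheath interacting protein, had 0.570 and 5.10 FPKM untreated and 6.13 and 4.03 FPKM treated, and the calcium channel RYR3 had 1.70 and 7.22 FPKM untreated and 5.63 and 1.37 FPKM treated. Their order between the lines therefore turned in the treated state. AC119676.1, listed at 0 in WT and at 10.4 FPKM in RLKO, is a gene model of 81 bases and was listed at 0 in treated RLKO. By abundance the leading gene, chosen after its value was seen, was SPP1, the secreted phosphoprotein osteopontin, with 1595 FPKM in WT and 3986 FPKM in RLKO.

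**Figure D2:**
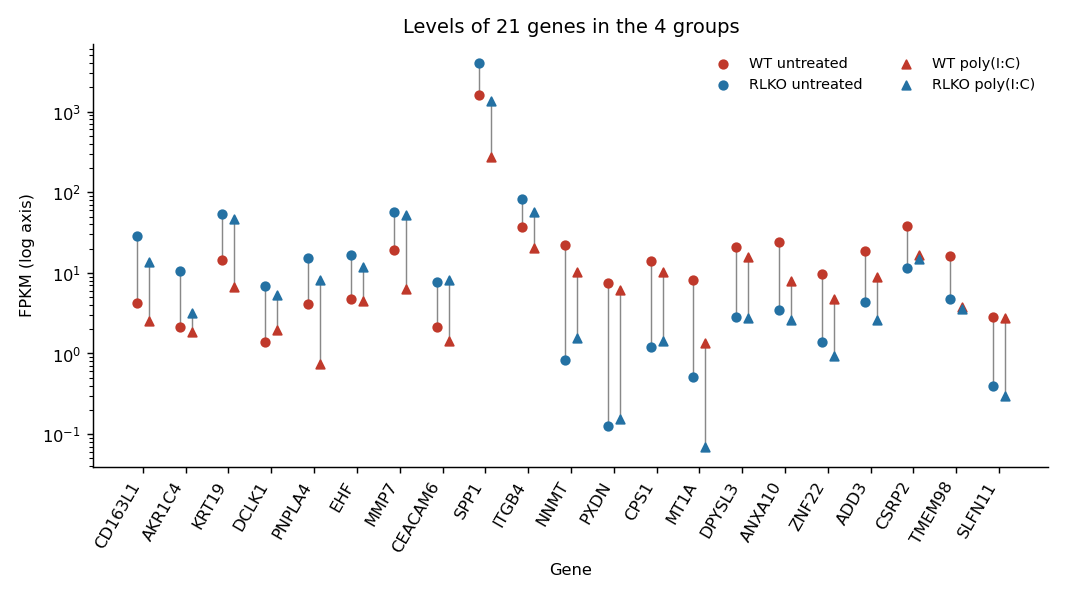
FPKM (log axis) of 21 genes, WT in red and RLKO in blue, circles for untreated and triangles for poly(I:C) groups, each symbol 1 deposited group value without an error. PXDN stood at 7.39 and 6.06 FPKM in the WT groups and at 0.125 and 0.155 FPKM in the RLKO groups, while the 2 treated values of TMEM98 nearly coincide.

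The treated groups are other samples of the same lines, so they show which differences recurred, although RNase L is held to be active in treated WT only. Of the 66 genes higher in untreated RLKO, 25 (37.9%) were at least 2-fold higher in treated RLKO too, and 943 of all protein-coding members (8.25%) were so. Of the 78 lower genes, 26 (33.3%) were at least 2-fold lower in treated RLKO, where 539 of all members (4.72%) were. The sign was the same in 44 of the 66 and 60 of the 78. Over all protein-coding members the untreated and treated differences had r = 0.005 across genes, and the treated differences had a median of 0.18 and a wider spread (SD over genes 0.65, against 0.34 untreated). The shares that recurred were thus above those of all members, while over all genes the differences in the 2 states had no linear relation. That r spans groups of genes that moved in opposed ways. Members under 1000 bases had a median of -0.23 untreated and 0.70 treated, and those of 6000 bases or more 0.17 and 0.09. At 300 FPKM or more the medians were -0.20 and 1.05.

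On the log2(FPKM + 1) scale 5 genes were at least 4-fold apart the same way in both states, NNMT, PXDN, CPS1, DPYSL3 and CD163L1. The added 1 FPKM shortens this list. ZNF22, at 9.60 and 1.38 FPKM untreated and 4.70 and 0.925 FPKM treated, is more than 4-fold apart in both states without it. RefSeq (GRCh38.p14) holds a promoter entry for 4 of the 5 genes. The 250 bases before the start of that entry are shown so that their base composition can be seen, with each CG dinucleotide in capitals. CPS1 has 3 entries and DPYSL3 has 2, and the one nearest the gene's annotated 5′ end is shown; which start these cells use was not tested. The PXDN and CD163L1 windows lie inside the GENCODE span of their genes, so other annotated transcripts start further upstream. The windows lie at chr2:1744516-1744765 (PXDN, minus strand), chr5:147510069-147510318 (DPYSL3, minus), chr2:210477435-210477684 (CPS1, plus) and chr12:7444154-7444403 (CD163L1, minus).
PXDN: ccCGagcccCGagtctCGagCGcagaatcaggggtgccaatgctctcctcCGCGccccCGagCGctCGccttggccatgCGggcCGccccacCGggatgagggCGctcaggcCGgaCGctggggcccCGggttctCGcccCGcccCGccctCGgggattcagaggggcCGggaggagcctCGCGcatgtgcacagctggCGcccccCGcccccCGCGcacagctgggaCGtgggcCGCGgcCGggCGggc
DPYSL3: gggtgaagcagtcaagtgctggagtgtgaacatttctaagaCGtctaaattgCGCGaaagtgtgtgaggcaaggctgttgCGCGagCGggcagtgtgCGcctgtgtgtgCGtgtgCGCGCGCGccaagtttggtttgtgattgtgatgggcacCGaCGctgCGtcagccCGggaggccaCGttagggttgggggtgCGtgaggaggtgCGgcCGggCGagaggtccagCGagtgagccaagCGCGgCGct
CPS1: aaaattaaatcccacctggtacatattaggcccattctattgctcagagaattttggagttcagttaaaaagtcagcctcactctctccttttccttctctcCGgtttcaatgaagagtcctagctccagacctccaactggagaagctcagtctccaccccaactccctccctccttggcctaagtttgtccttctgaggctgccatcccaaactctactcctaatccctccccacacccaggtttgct
CD163L1: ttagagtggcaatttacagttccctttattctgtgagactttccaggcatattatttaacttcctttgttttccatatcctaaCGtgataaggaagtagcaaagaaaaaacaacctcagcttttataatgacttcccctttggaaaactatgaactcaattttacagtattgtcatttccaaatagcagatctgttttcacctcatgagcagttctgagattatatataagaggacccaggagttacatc
The PXDN window held 32 CG and the DPYSL3 window 25, while the CPS1 and CD163L1 windows held 1 each. CG reads the same on both strands. Over all 35116 promoter entries of the same length the median was 11 CG (interquartile range 3 to 23), and 93.9% held at least 1. The 4 windows are a description, and promoter methylation was not measured in this series.

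**Figure D3:**
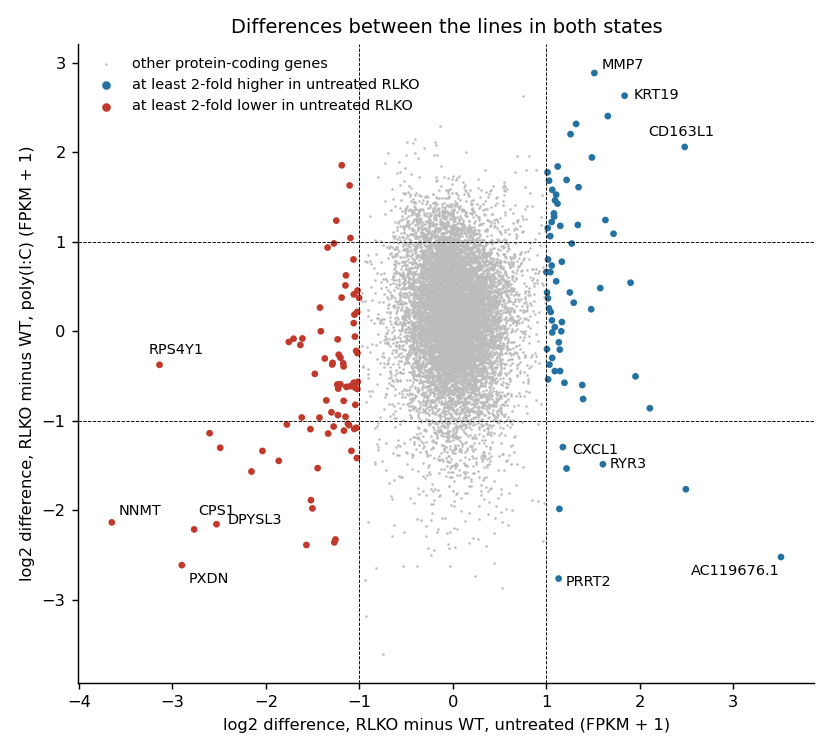
log2 difference RLKO minus WT in untreated cells (horizontal) against the same difference in poly(I:C)-treated cells (vertical) for protein-coding genes, dashed lines at 2-fold. PXDN, NNMT, CPS1 and DPYSL3 lie low on both axes and CD163L1, KRT19 and MMP7 high on both, while RYR3, CXCL1, PRRT2 and AC119676.1 lie on opposite sides.

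In 7 of the 66 higher and 4 of the 78 lower genes the treated difference passed 2-fold the opposite way. Of all protein-coding members 4.72% were at least 2-fold lower in treated RLKO and 8.25% higher. Short rows listed at 0 in untreated WT were among these genes, such as AC119676.1 of 81 bases and ETDC of 180 bases. CXCL1, a chemokine for neutrophils, had 9.29 FPKM in WT and 22.3 FPKM in RLKO untreated, and 105 and 42.4 FPKM treated. PRRT2, a synaptic protein, had 1.92 and 5.40 FPKM untreated and 18.1 and 1.82 FPKM treated. Both were higher in RLKO before the stimulus and higher in WT after it.

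Some genes were near silent in RLKO and expressed in WT. A rule chosen after values were seen asked for under 0.2 FPKM in both groups of one line. The untreated group of the other line had to have at least 1 FPKM, which is also the member limit. Of 11430 protein-coding members 19 were near silent in RLKO by this rule and 3 in WT. Some of the 19 lay close to the limit in untreated WT, such as NTS at 1.03 FPKM and TUSC1 at 1.06 FPKM, and no result is drawn from the imbalance. Of the 19, 6 had at least 1 FPKM in treated WT as well, among them PXDN, CAVIN3, TCF4, MYOCD and TUSC1. CAVIN3, a caveolar coat protein, had 3.24 FPKM in WT and 0.0349 FPKM in RLKO. TCF4, a basic helix-loop-helix transcription factor, had 2.99 and 0.165 FPKM, and MYOCD, the muscle coactivator myocardin, had 1.22 and 0.0460 FPKM. The 3 near silent in WT, MAP4K1, UGT8 and TM4SF19-TCTEX1D2, were all under 1 FPKM in treated RLKO. Of 384 zinc finger genes named ZNF, ZFP, ZSCAN or ZKSCAN, looked at after values were seen, 5 (1.30%, against 0.682% of all protein-coding members) were lower and 0 higher, with a median of 0.07. The 5 were ZNF22, ZNF239, ZNF571, ZNF724 and ZFP82.

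All 3 protein-coding members on chromosome Y were listed at 0 in both RLKO groups. RPS4Y1, a ribosomal protein, had 7.80 FPKM in untreated WT and 0.296 FPKM in treated WT. EIF1AY, a translation initiation factor, had 2.37 and 0.0858 FPKM in the WT groups, and DDX3Y, an RNA helicase, had 1.25 and 0.282 FPKM. The 3 rows carried the status mark NOTEST (no test run), not HIDATA. Other rows named here carried NOTEST too, among them PXDN, SLFN11, CAVIN3, TCF4, MYOCD, TUSC1 and THY1. A listed 0 can be a failed estimate, and no status mark follows the WT column.

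Of 907 distinct members of the 37 gene lists 7 were higher and 12 lower, together 2.09%, against 1.26% of all protein-coding members. The 907 include the list of nuclear and structured noncoding RNAs, which gave 3 of the 12 lower. Of all members, coding or not, 4.99% were higher and 3.21% lower, so the 2.09% is not read as a result about the lists. Of 33 lists with at least 5 members 19 had no member beyond 2-fold. At the share of 1.26% a list of this size holds few or no such genes, so a count of 0 says nothing about a list. Of 28 genes that sense double-stranded RNA or signal to and from interferon, 0 were beyond 2-fold, with a median of 0.05 (all protein-coding members 0.01). ADAR, the RNA-editing deaminase, had 63.7 FPKM in WT and 63.6 FPKM in RLKO, and the transcription factor IRF3 had 56.8 and 54.6 FPKM. The highest of that list, picked after values were seen, was EIF2AK2, the kinase PKR, at 13.5 and 20.8 FPKM.

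Of 45 interferon-stimulated effectors 1 was lower and 0 higher, with 32 of 45 above 0 and a median of 0.19. The lower one was SLFN11, a restriction factor of the Schlafen family, which had 2.80 FPKM in WT and 0.397 FPKM in RLKO untreated and 2.75 and 0.301 FPKM treated. SLFN11 was also the 1 of 18 other RNases on the list beyond 2-fold. LGALS3BP, a secreted glycoprotein, had 62.5 and 85.4 FPKM, and PLSCR1, a scramblase, 42.8 and 46.6 FPKM. Of 35 NF-kB dependent genes CXCL1 was the 1 that was higher and 0 were lower, and the chemokine gene CCL2 had 482 and 465 FPKM. Among 31 immediate early transcripts 0 were beyond 2-fold (median -0.16), with FOSL1 at 78.1 and 78.5 FPKM.

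Among stress lists the counts were as low. Of 30 integrated stress response targets 1 was lower, NUPR1, a stress-induced chromatin protein, at 7.90 FPKM in WT and 2.45 FPKM in RLKO. None of 29 p53 targets (median -0.01), 36 NRF2 targets (median -0.02), 19 hypoxia genes, 17 heat shock chaperones or 26 sterol synthesis genes was beyond 2-fold, counts that do not stand apart from the 1.26% of all protein-coding members. NQO1, a quinone reductase and target of NRF2, whose repressor KEAP1 is mutated in A549, had 3535 FPKM in WT and 3611 FPKM in RLKO. Of 29 drug metabolism genes AKR1C4 was the 1 higher, and ALDH1A1, a retinal dehydrogenase, had 2201 and 3446 FPKM.

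Adhesion and matrix genes went both ways. Of 23 epithelial keratin and junction genes, with a median of 0.28 and 16 of 23 above 0, KRT19 was higher and the hair keratin KRT86 lower (6.275 FPKM in WT and 2.63 FPKM in RLKO). Of 28 mesenchymal genes 2 were lower and 0 higher, SPARC, a matrix glycoprotein, at 2.503 and 0.260 FPKM, and THY1, a surface glycoprotein of fibroblasts, at 1.83 and 0.395 FPKM. The list's median was -0.03.

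ITGB4, the integrin beta 4 chain of hemidesmosomes, had 37.0 FPKM in WT and 81.8 FPKM in RLKO, and IL6ST, the shared receptor chain gp130, had 70.3 and 143.7 FPKM; they were the 2 of 34 integrins and surface receptors beyond 2-fold. Among 32 collagens and basement membrane genes COL4A5 was higher at 14.8 and 34.0 FPKM and COL1A1 lower at 6.31 and 2.59 FPKM. ITGB4 and COL1A1 kept a difference above 2-fold in treated cells, at 1.43 and -1.42, and COL4A5 did not, at -0.20. All 7 clustered protocadherins that were members lay above 0, with a median of 0.51 and 0 beyond 2-fold, and all were low, led by PCDHAC2 at 4.85 and 9.14 FPKM. Of 53 protocadherins on the list 46 were under the member limit.

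**Figure D4:**
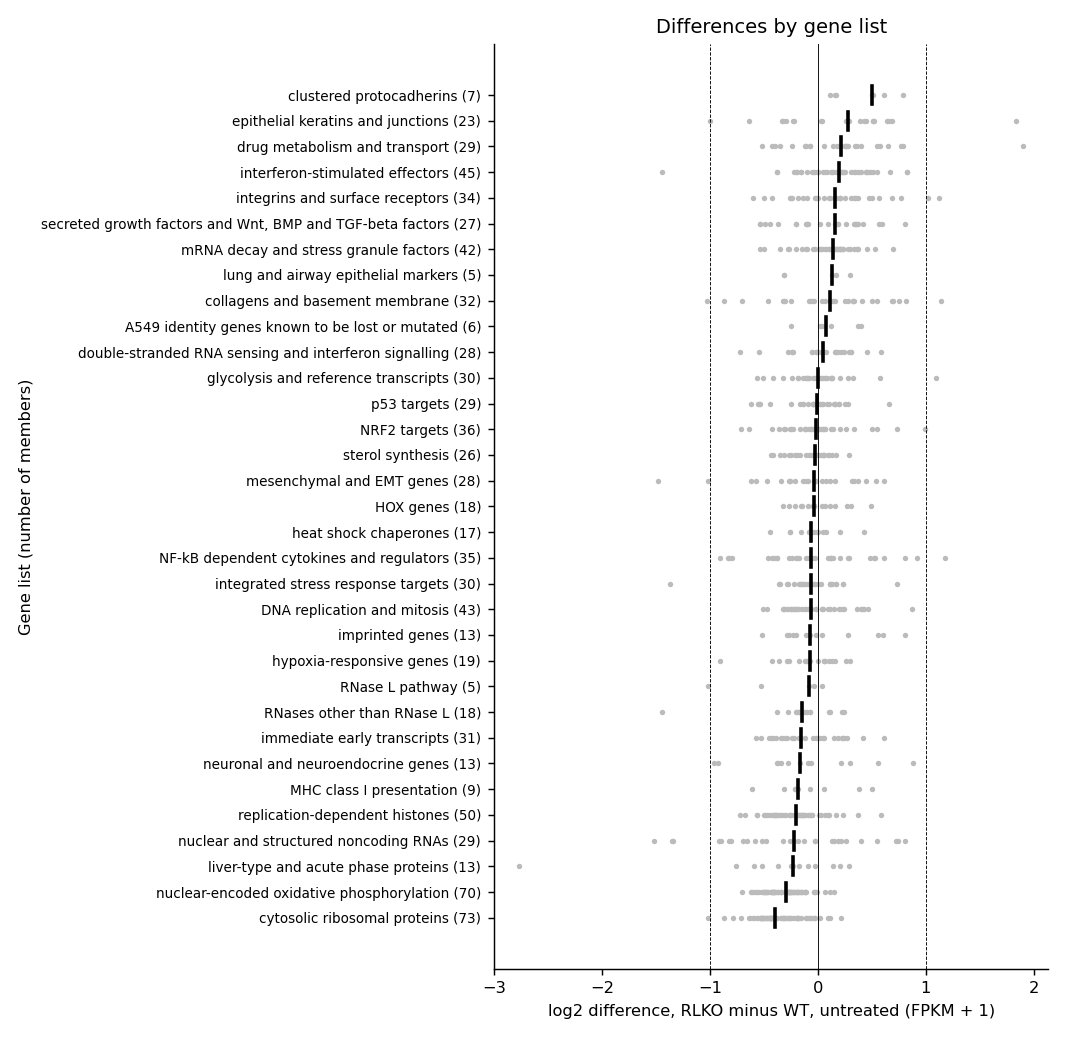
log2 difference RLKO minus WT in untreated cells (horizontal) for the 33 gene lists with at least 5 members (vertical, number of members in parentheses), each grey point 1 gene, black bars the list medians, dashed lines at 2-fold. The medians run from -0.40 for cytosolic ribosomal proteins to 0.51 for clustered protocadherins, and most points lie inside the dashed lines. On the ERCC scale the median over protein-coding members moves from 0.01 to -0.34 and the lists with it. With 1 ERCC subgroup alone that median moves to 0.44.

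Small shifts shared by many genes were seen in abundant housekeeping lists. Of 73 cytosolic ribosomal protein genes 69 were below 0, with a median of -0.40, yet 1 passed 2-fold, RPL14, at 547 FPKM in WT and 269 FPKM in RLKO. RPS19 had 8525 and 5980 FPKM and RPL37A 8173 and 6073 FPKM. Of 70 nuclear-encoded oxidative phosphorylation genes 67 were below 0 and 0 were beyond 2-fold, with a median of -0.29; COX7C, a subunit of cytochrome c oxidase, had 2120 and 1514 FPKM. Replication-dependent histones had a median of -0.20 (41 of 50 below 0), and DNA replication and mitosis genes -0.07 with 0 of 43 beyond 2-fold. In treated cells the ribosomal protein, oxidative phosphorylation and histone medians were on the other side, at 1.14, 1.07 and 1.21.

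The shifts between the untreated lines ran alongside transcript length, GC content and level. Protein-coding members under 1000 bases had a median of -0.23 and those of 6000 bases or more 0.17. By GC content the medians went from 0.17 under 38% to -0.11 at 58% or more, and by level from 0.03 at 1 to 3 FPKM to -0.20 at 300 FPKM or more. After subtracting the median of genes alike in length and GC (5 groups each) the ribosomal protein median was -0.28, the oxidative phosphorylation median -0.22 and the histone median -0.04. After the same step 52 of the 66 higher genes and 66 of the 78 lower genes were still beyond 2-fold.

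**Figure D5:**
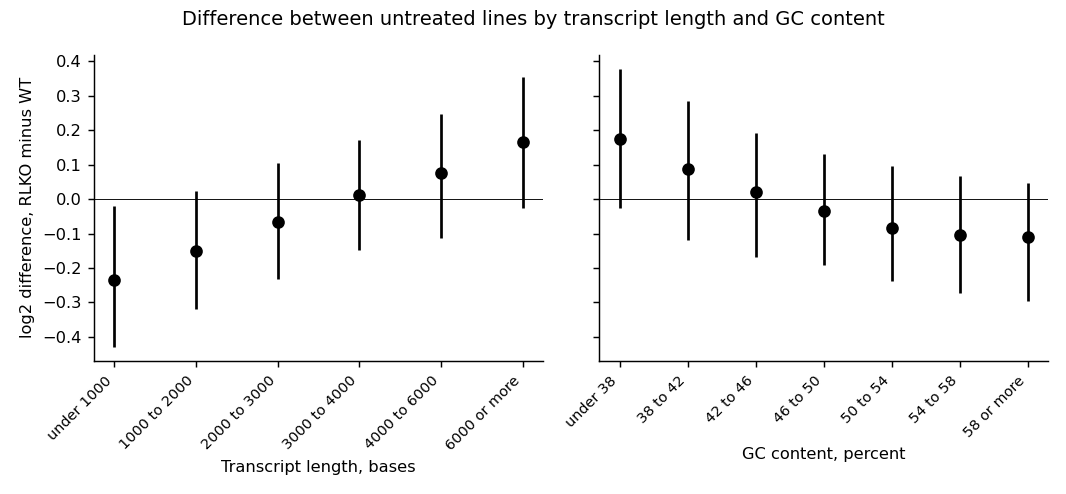
Median log2 difference RLKO minus WT in untreated cells (vertical; bars are interquartile ranges over genes, not errors) of protein-coding members grouped by transcript length in bases (left) and GC content in percent (right). The median goes from -0.23 for transcripts under 1000 bases to 0.17 at 6000 bases or more, and from 0.17 to -0.11 with GC content.

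No chromosome other than Y and the mitochondrial one stood far from the rest. Autosome medians ran from -0.08 on chromosome 19 to 0.13 on chromosome 13 and from -0.03 to 0.04 after the length and GC step. The genes of chromosome 19 had a median GC content of 53.9% and those of chromosome 13 one of 39.8%. Over runs of 15 neighbouring protein-coding members the medians lay between -0.34 and 0.41. The highest run spanned chromosome 11 from 100687653 to 106022403, between ARHGAP42 and MSANTD4, and held 2 genes beyond 2-fold, MMP7 and the GTPase activator ARHGAP42 (3.53 and 8.45 FPKM). The lowest lay on chromosome 19 from 55151767 to 55487568, between TNNI3 and NAT14, with 0 beyond 2-fold and a median GC content of 56.7%. No run had a median beyond 2-fold either way.

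Outside the protein-coding class, differences were more frequent and rested on short transcripts. Of all 18132 members 904 (4.99%) were at least 2-fold higher and 582 (3.21%) lower. In the small RNA classes 58.8% of 1753 members were beyond 2-fold, against 2.78% of 16379 others, and many were listed at 0 in one line. RN7SL3, a signal recognition particle RNA gene, was listed at 0 in untreated WT but had 13238 FPKM in untreated RLKO and 18152 FPKM in treated WT. Near-identical copies can share or split the reads of such genes, and their values are uncertain.

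Among named noncoding RNAs, the minor spliceosomal RNU6ATAC had 8585 FPKM in WT and 2994 FPKM in RLKO, RNU4ATAC had 677 and 266 FPKM, and RMRP, the RNA of RNase MRP, had 1147 and 448 FPKM. All 3 were the members of a list of 29 nuclear and structured RNAs that passed 2-fold, and all were lower in RLKO. Of all members 4.99% were higher and 3.21% lower, and of the small RNA classes 58.8% were beyond 2-fold. In treated cells RNU6ATAC went the other way, with 1241 FPKM in WT and 1553 FPKM in RLKO. RNU4ATAC had 4400 and 319 FPKM there, and RMRP 437 and 264 FPKM. The lincRNA LINC02086 was higher in both states, at 2.69 and 12.8 FPKM untreated and 1.78 and 12.5 FPKM treated. The antisense gene AC145207.3 had 4.70 and 29.8 FPKM and SCARNA9 152 and 53.6 FPKM. Strandedness of the libraries was not given in the sources used here, so antisense reads cannot be told apart from those of an overlapping gene.

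Mitochondrial transcripts went both ways. All 9 mitochondrial protein-coding members lay above 0 in FPKM as deposited, from 0.004 for MT-ND3 to 0.97 for MT-ND4L. Their median was 0.52 and 0 were beyond 2-fold. Other coding genes of that genome, such as MT-CO1, were not members. MT-ND4, a complex I subunit, had 3349 FPKM in WT and 6286 FPKM in RLKO. The mitochondrial rRNAs went the other way, MT-RNR1 with 348 and 59.4 FPKM and MT-RNR2 with 498 and 98.1 FPKM. In treated cells the coding median was -1.88 and the rRNAs were at 0.24 and 0.23. Of 14 mitochondrial tRNA members 6 lay above and 8 below 0, with 2 at least 2-fold higher and 4 lower. Ribosomal RNA was the target of the depletion step, and whether depletion differed between the groups was not tested.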

How the data were processed

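Per the submitters' processing notes, the authors' pipeline named GRCh38.p12 and these tools: Cuffdiff 2.2.1, Bowtie2 2.0.2, TopHat2 2.0.6, Trimmomatic 0.32 and FastQC. The authors deposited FPKM, 1 value for each of 4 groups of 3 samples, with GC content in percent and transcript length per the file headers. Library scaling between groups was not given in the sources used here, and the depth behind each value is unknown. Gene positions and classes came from GENCODE release 29, which matched all IDs. Differences were computed with Python 3.11.15, pandas 2.3.3 and numpy 2.4.6 as log2 of FPKM + 1, RLKO minus WT, with a 2-fold limit. There was no test, since no group had single-sample values. The main scale was FPKM as deposited, because the ERCC rows fell into 2 sets between the lines. 86 HIDATA rows were left out. The authors' half-life column was not used, since 36.4% of the higher and 42.3% of the lower genes had a value.

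Named genes were those of the 2-5A pathway, A549 identity genes, the 12 largest differences each way in the coding class at 5 FPKM or more in the higher line, the 4 largest each way among lincRNA and antisense genes, and up to 4 members per list beyond 2-fold or the 2 most abundant. Members and lists were chosen with earlier results of these data known. Genes that recur or turn in treated cells, the near-silent, zinc finger, chromosome Y, mitochondrial and small RNA genes and the extremes of a list were named after their values were seen. Steps were tested on simulated data. Some results are not reported here.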

Additional observations from a re-analysis of the deposited data

How the results depend on the processing

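On the ERCC scale 25 genes were at least 2-fold higher and 230 lower, 12.6% of the lower ones recurred in treated cells (3.19% of all members were lower there) and the median over protein-coding members was -0.34. A pseudocount of 0.1 FPKM gave 160 higher and 150 lower, and 46.7% of the lower recurred (7.03% of all members). A pseudocount of 5 FPKM gave 12 higher and 18 lower, 58.3% of the higher recurred (5.07% of all members), and the autosome medians spanned 0.13 in place of 0.21. With at least 5 FPKM in either group 37 were lower, and the median of neuronal genes relative to all protein-coding members turned from -0.18 to 0.073. Without a level filter the autosome span was 0.0060 and the gap between short and long transcripts -0.075 in place of -0.40.

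The following were chosen after seeing the data. The ERCC factor from the rows of 1 subgroup gave 448 higher and 34 lower, a median of 0.44, 79.5% and 14.7% recurring (73.1% of all members were higher and 0.324% lower in treated RLKO on that scale), and a lung marker median that turned from 0.12 to -0.019. Without those rows it gave 21 higher and 342 lower, a median of -0.41 and 13.5% of the lower recurring (5.05% of all members). Centring on length and GC left 47.9% of the lower recurring (6.56% of all members), an autosome span of 0.069 and a gap between short and long transcripts of -0.081, by its own construction. A pseudocount also acts by construction, since a larger one shrinks the differences of low genes. Without a level filter, rows at or near 0 FPKM in both lines enter with a difference near 0, which narrows the span and the gap. The cause of the other moves was not tested. Of the 48 named genes beyond 2-fold, 43 were so on the ERCC scale, 48 with a pseudocount of 0.1 FPKM and 32 with 5 FPKM. Where measured, 0 turned sign (37 of the 48 under length and GC centring, 44 with at least 5 FPKM, 47 under the filter on the mean, all 48 otherwise). A pseudocount or a filter cannot turn a sign, and the rescaled medians stayed well inside the 2-fold limit by which these genes were picked. That 0 is therefore no check on them. No paired analysis was possible because the table gives 1 value per group, and leaving out single samples was not run for the same reason. Without read depth, a low value cannot be told apart from sampling noise.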

Other observations

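Several lists were not described above. Of 18 HOX genes 0 were beyond 2-fold (median -0.04), with HOXB7 at 25.8 FPKM in WT and 23.1 FPKM in RLKO and HOXB6 at 11.6 and 16.8 FPKM. Of 13 imprinted genes 0 were beyond 2-fold, with GNAS, a G protein subunit, at 252 and 214 FPKM. Of 13 liver-type genes, with a median of -0.23 and 10 of 13 below 0, CPS1 was the 1 beyond 2-fold, while APOH, an apolipoprotein, had 16.1 and 15.1 FPKM and FOXA2, a transcription factor of endoderm, 11.3 and 8.59 FPKM. Of 9 MHC class I presentation genes 0 were beyond 2-fold, with B2M, the light chain, at 115 and 102 FPKM.

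Among 27 secreted growth factor genes 0 were beyond 2-fold, with DKK1, a Wnt inhibitor, at 454 and 323 FPKM and IGFBP4, which binds insulin-like growth factors, at 500 and 367 FPKM. Of 42 mRNA decay and stress granule genes 0 were beyond 2-fold (median 0.14), with PABPC1, the poly(A)-binding protein, at 528 and 556 FPKM and G3BP1, a stress granule scaffold, at 260 and 215 FPKM. Of 30 glycolysis and reference genes PFKL, a phosphofructokinase, was the 1 beyond 2-fold at 13.8 and 30.6 FPKM, while GAPDH had 3385 and 3552 FPKM. Of 16 leukocyte markers 2 were members, CD68 at 18.95 and 22.3 FPKM and ITGAM at 1.60 and 2.71 FPKM. Of 12 endothelial and fibroblast markers 2 were members, both lower, COL1A1 and the proteoglycan LUM at 2.95 and 1.17 FPKM.

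The ERCC rows did not move together between the lines. Over 48 rows the log2 ratio of RLKO to WT had a median of 0.39 and ran from -0.65 to 1.08. The 12 rows of 1 subgroup of the product's design lay below 0 with a median of -0.49, while 33 of the other 36 were above 0 with a median of 0.47. In the treated groups the medians of the same sets were -1.45 and 0.04. The subgroup was taken from general knowledge of the product after the split was seen, and its cause was not tested.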
